A study of Mus musculus with 4 samples.

Results

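The miR-29 family was followed in small RNA sequencing of cultured mouse synovial fibroblasts, the connective tissue cells that line the joint. Its members were chosen by name alone: every row whose name, without the arm mark, is miR-29a, miR-29b or miR-29c. This gave 6 rows of 590 miRNAs listed in any library: mmu-miR-29a, mmu-miR-29b and mmu-miR-29c, and the star arms mmu-miR-29a*, mmu-miR-29b* and mmu-miR-29c*, written below without the species prefix. The tested cells came from TghuTNF mice, which carry a human TNF transgene and develop arthritis, and the controls from wild-type (WT) littermates without it, with 2 biological replicates per genotype. Both groups had the strain CBA/J * C57BL/6/J, an age of 8 weeks and 4 culture passages. The sources used here do not name the promoter of the transgene or say whether a culture pooled several mice. The p-values therefore measure the spread between these cultures.

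miRNAs bind messenger RNAs mainly through their seed, bases 2 to 8 from the 5′ end, and lower the output of those messages. The miR-29 family is known for repressing messages of extracellular matrix proteins, among them collagens, elastin and fibrillin, and is studied in fibroblasts because its loss accompanies fibrosis in heart, liver and lung. TGF-beta signalling is known to lower it in heart fibroblasts, and NF-kB in muscle precursor cells. The main arm of each hairpin is the 3′ arm, and the 5′ arm, called the star arm here, is usually degraded.

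The mature sequences from RefSeq (GRCm38.p6) show why the 3 main arms count as 1 family and how close they are. All 3 carry the same seed, set in capitals, and differ behind it.
miR-29a: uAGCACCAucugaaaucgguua
miR-29b: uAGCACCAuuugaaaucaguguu
miR-29c: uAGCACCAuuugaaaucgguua
Of 1679 RefSeq mouse mature miRNAs, 3 (0.179%) had the seed AGCACCA, and these were the 3 main arms. The star arms do not share it. Their seeds, again in capitals, all differ from each other, and RefSeq lists 2 star arms for mir-29b because that hairpin has 2 copies.
miR-29a*: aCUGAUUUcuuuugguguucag
miR-29b-1-5p: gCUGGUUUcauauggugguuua
miR-29b-2-5p: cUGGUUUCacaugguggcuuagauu
miR-29c*: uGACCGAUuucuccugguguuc
The deposited files hold 1 row named miR-29b*, and this name does not say which copy it stands for. The further identifier that each row carries was not looked up here. Over 21 aligned bases the star arms of both copies differ at 2, the number of mismatches the counting allowed.

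The 4 hairpins lie in 2 clusters. On GRCm38, Mir29a (chr6:31062660-31062747) and Mir29b-1 (chr6:31063023-31063093) sit 275 bases apart on the minus strand. Mir29a overlaps no other gene annotated in GENCODE M21, and Mir29b-1 shares 2 bases with the long non-coding gene Gm27019. On the plus strand of chromosome 1, Mir29b-2 (chr1:195037040-195037120) and Mir29c (chr1:195037547-195037634) sit 426 bases apart inside exon 3 of the non-coding gene A330023F24Rik, and opposite exon 11 of Cd46, a protein-coding gene on the other strand. The main arm of miR-29b is identical from both clusters, so its reads cannot be assigned to one of them.

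Total matches were 27362819 and 22959408 in the TghuTNF libraries, against 16680860 and 26542371 in the WT libraries. Levels are given as counts per 1000000 matches (CPM) after TMM scaling, a correction for differences in library composition. TghuTNF replicate 2 stood apart, with 11.7% of its matches at 2 mismatches against 8.21% to 8.73% in the other libraries, and 186 of 265 miRNAs (70.2%) had their lowest odds of a perfect match in it. The 7 fibroblast miRNAs of a marker list (miR-21 the most abundant) summed to 290641 to 314835 CPM in TghuTNF and 285584 to 298797 CPM in WT. Of these 7, 1 rose, 1 fell and 5 did not pass by edgeR. Of all 442 tested miRNAs, 4.75% rose and 8.60% fell. The 7 blood cell miRNAs (miR-486 the most abundant of those tested) summed to 34.1 to 48.0 CPM in TghuTNF and 30.1 to 43.8 CPM in WT. Of the 4 that were tested, 1 rose and 3 did not pass, with a median log2 fold change of 1.13: miR-486 stood at -0.69, and miR-223, named after its value was seen, rose by 2.72 on the log2 scale and stood at 3.26 and 2.40 CPM in TghuTNF, against 0.609 and 0.294 CPM in WT. The 2 endothelial arms, led by miR-126-3p, summed to 66.7 to 68.8 CPM in TghuTNF and 107.6 to 126.7 CPM in WT. Muscle miRNAs (6 of 7 listed, miR-208a at 0, miR-206 the most abundant) summed to 1784 to 2055 CPM in TghuTNF and 2426 to 3008 CPM in WT, and 4 chondrocyte miRNAs, led by miR-140*, to 18526 to 26041 CPM in TghuTNF and 12315 to 13108 CPM in WT. The chondrocyte miRNAs did not move one way: miR-140 and miR-140* rose (log2 fold changes 0.91 and 0.81), and miR-455 and miR-455* fell (-1.88 and -1.17), by edgeR. The 10 epithelial miRNAs, led by miR-182, summed to 229 to 275 CPM in TghuTNF and 181 to 242 CPM in WT. Of the 7 epithelial miRNAs tested, 0 rose, 1 fell and 6 did not pass by edgeR. The 9 neural ones, led by miR-129-5p, summed to 454 to 472 CPM in TghuTNF and 284 to 331 CPM in WT. Of the 6 neural miRNAs tested, 2 rose, 0 fell and 4 did not pass. Per the labels, flow cytometry put less than 1% of the cultured cells as positive for Mac1, a myeloid marker. It put 80% to 90% as positive for CD90.2, and over 85% for VCAM-1 and 80% for ICAM-1, with no value per culture. The part of other cells in the miR-29 levels was not tested.

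miR-29a was the abundant member of the family, and its level was close in both genotypes. It ranked 30 of 590 by total matches and 24 by perfect matches. It stood at 3926 and 4518 CPM in TghuTNF fibroblasts, against 4549 and 4031 CPM in WT fibroblasts. The groups overlapped: a TghuTNF library was lowest and a WT library highest, with the other two between them. Its log2 fold change was -0.023 ± 0.16 (SE, n = 2 per genotype; edgeR adjusted p = 0.94). The 95% interval of the fold ran from 0.768 to 1.26, and 97.1% of the 442 tested miRNAs had a larger change in either direction. In bulk cultures, fewer cells of a type and less RNA per cell cannot be told apart.

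The matches of miR-29c nearly equalled the perfect matches of miR-29a in number. By total matches, miR-29c stood at 3524 and 3761 CPM in TghuTNF and 4001 and 3592 CPM in WT, close below miR-29a. Counted from 1 at the 5′ end, miR-29a and miR-29c differ by the substitution C10U alone, shown in capitals.
miR-29a: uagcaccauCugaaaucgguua
miR-29c: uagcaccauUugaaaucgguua
miR-29c had 95845 and 83371 matches with 1 mismatch in TghuTNF, and miR-29a had 95831 and 82697 perfect matches there. In WT, miR-29c had 64896 and 96434 matches with 1 mismatch, and miR-29a had 64880 and 96416 perfect matches. The numbers differed by 14 matches in TghuTNF replicate 1, 16 in WT replicate 1 and 18 in WT replicate 2, and by 674 in TghuTNF replicate 2. Whether the same reads were counted under both names is not given in the sources used here, so the total matches of miR-29c are not read as a measurement separate from miR-29a. Its log2 fold change by total matches, -0.060 ± 0.16 (edgeR adjusted p = 0.83), lay close to that of miR-29a.

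Perfect matches to miR-29c were few. There were 225 and 218 in the TghuTNF libraries and 132 and 254 in the WT libraries, or 0.235 and 0.264 per 100 perfect matches of miR-29a in TghuTNF and 0.203 and 0.263 in WT. For scale, the matches of miR-29a with 1 mismatch, divided over its 22 positions, came to 140 and 317 in TghuTNF and 105 and 152 in WT. The perfect matches of miR-29c exceeded that value in TghuTNF replicate 1 and both WT libraries and were below it in TghuTNF replicate 2. That value counts any base change at a position, whereas only C to U at base 10 gives miR-29c. It may also include the perfect matches of miR-29c themselves. Both points raise the scale, so a count below it is not read as a lack of miR-29c. How many of the perfect matches of miR-29c are miR-29a molecules misread at base 10 was not tested. At this resolution, miR-29c stood at 11.6 and 14.4 CPM of perfect matches in TghuTNF and 11.5 and 13.6 CPM in WT, rank 203 of 590 in place of rank 34. Its log2 fold change by perfect matches was 0.046 ± 0.28 (SE, n = 2 per genotype; edgeR adjusted p = 0.92).

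**Figure D1:**
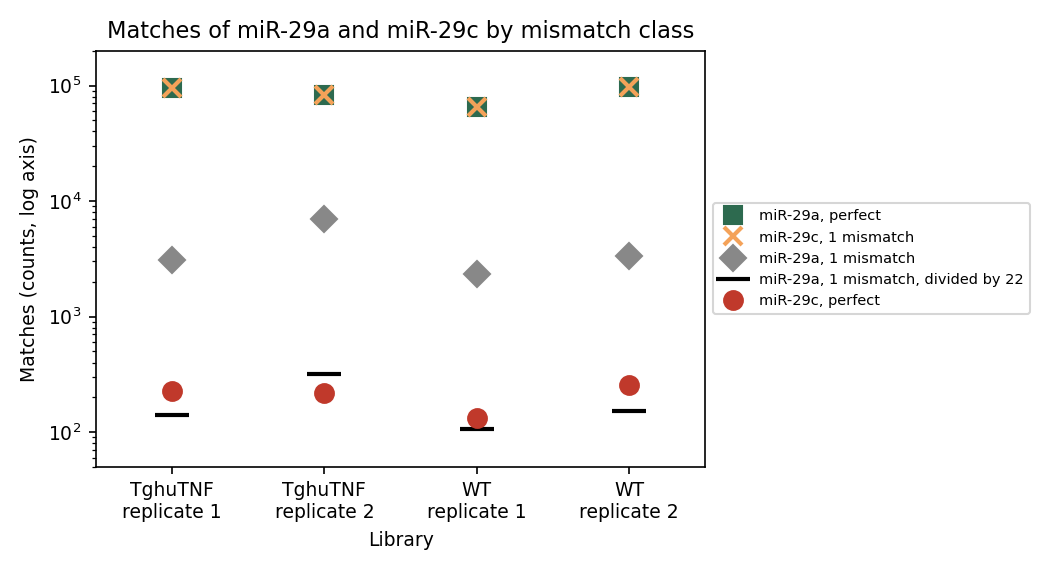
Matches (counts, log axis) of miR-29a and miR-29c in the 4 libraries, by mismatch class; the dash is the 1-mismatch count of miR-29a divided by 22. The 1-mismatch matches of miR-29c lie on the perfect matches of miR-29a in every library, while its own perfect matches number 132 to 254.

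The members differed widely in how well their reads matched. The median tested miRNA had 64.2% perfect matches. miR-29b*, miR-29a* and miR-29a had 94.2%, 91.0% and 86.1%, whereas miR-29b had 38.5%, miR-29c* 26.2% and miR-29c 0.24%. Of the 442 tested miRNAs, 9 had a lower perfect share than miR-29c, and 1 had a higher share of matches with 1 mismatch. For miR-29b the excess lay in the class with 2 mismatches, which held 54.7% of its matches against a median of 6.42%. It held 46.8% and 62.1% in TghuTNF and 55.6% and 47.0% in WT. miR-29a and miR-29b differ at 4 of 22 positions, but at 2 of the first 20, so a read that ends early can fit both within the allowed mismatches. Read lengths were not analysed here.

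**Figure D2:**
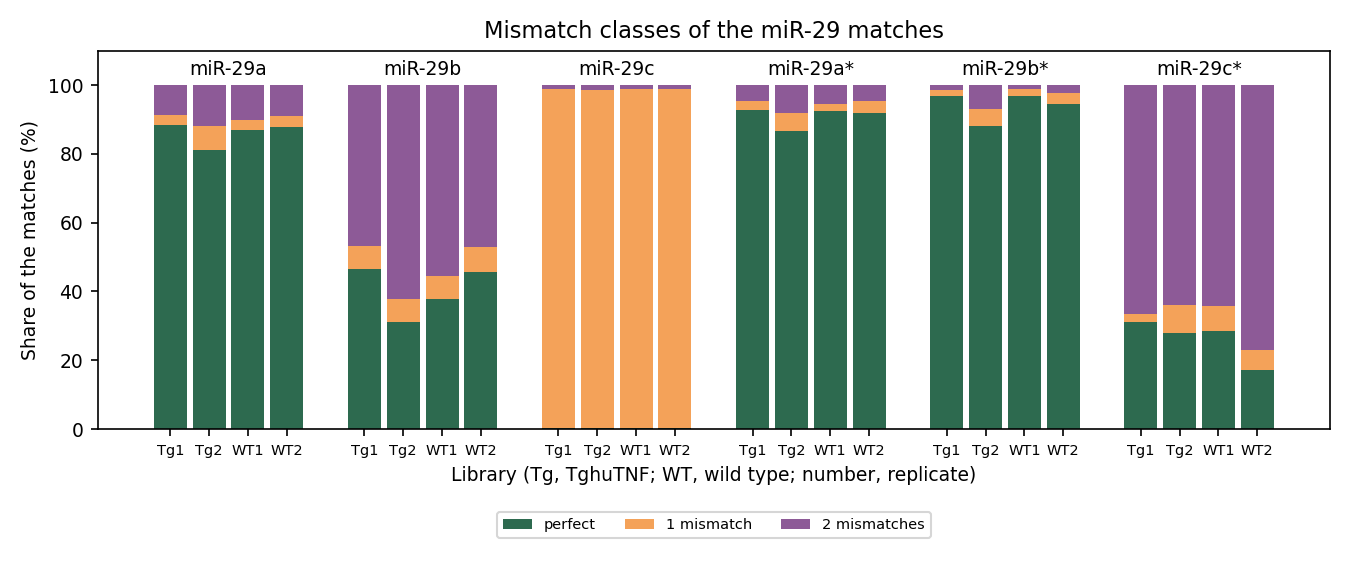
Share of matches (%) with 0, 1 and 2 mismatches for each miR-29 member in each library; TghuTNF libraries stand left of WT libraries. miR-29c is almost all 1-mismatch matches, miR-29b and miR-29c* are rich in 2-mismatch matches, and 4 of the 6 members (miR-29a, miR-29b and their star arms) have their lowest perfect share in TghuTNF replicate 2.

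Counted by perfect matches, miR-29a made up nearly all of the main arms. Its share of the perfect matches of the 3 main arms was 94.2% (exact 95% binomial interval 94.0% to 94.3%) and 90.3% (90.1% to 90.5%) in TghuTNF, against 93.9% (93.8% to 94.1%) and 92.9% (92.8% to 93.1%) in WT. miR-29b held 5.60% and 9.45% in TghuTNF and 5.86% and 6.83% in WT. miR-29c held 0.221% and 0.238% in TghuTNF and 0.191% and 0.245% in WT. These intervals cover counting error only, since reads carry no molecular identifiers. The libraries differed from each other by more than counting error, with TghuTNF replicate 2 lowest for miR-29a and highest for miR-29b.

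With 2 libraries against 2, no ratio between members could pass a test, and the ratios are given as values. The log2 ratio of miR-29b to miR-29a by perfect matches averaged -3.66 in TghuTNF and -3.88 in WT (exact permutation test, two-sided p = 1, with a smallest possible p of 0.333 for 2 libraries against 2). That of miR-29c to miR-29a averaged -8.65 in TghuTNF and -8.75 in WT (exact permutation p = 0.667), and that of miR-29a* to miR-29b* averaged 0.66 in TghuTNF and 0.79 in WT (exact permutation p = 0.667). After Benjamini-Hochberg adjustment over the 3 ratios, each exact permutation p was 1. With 1 library left out, the difference in the log2 ratio of miR-29b to miR-29a, TghuTNF minus WT, ran from -0.19 to 0.63, beside 0.22 over all 4.

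miR-29b, the member with an extended 3′ end, differed most of the members between the TghuTNF cultures. Its last 6 bases, in capitals, form a hexamer known to direct it to the nucleus in human HeLa cells.
miR-29b: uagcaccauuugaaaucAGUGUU
This hexamer was present in 12 of the 1679 RefSeq mature sequences (0.715%) and closed 2 of them. miR-29b stood at 444 and 1229 CPM in TghuTNF and 652 and 569 CPM in WT. The lowest and the highest library were both TghuTNF cultures, so the groups overlapped. Its log2 fold change was 0.45 ± 0.36 (SE, n = 2 per genotype; edgeR adjusted p = 0.43), and the interval of the fold ran from 0.789 to 2.38.

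With perfect matches only, miR-29b stood at 292 and 571 CPM in TghuTNF and 351 and 379 CPM in WT, a log2 fold change of 0.24 ± 0.30 (edgeR adjusted p = 0.66). Its direction depended on 1 library. Without TghuTNF replicate 2, the library rich in mismatches, the log2 fold change was -0.49 by total matches and -0.29 by perfect matches. Without TghuTNF replicate 1 it was 0.93 by total matches and 0.65 by perfect matches. Each of these fits leaves 1 TghuTNF culture, which is assumed to vary like the WT pair, so their calls are not read.

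**Figure D3:**
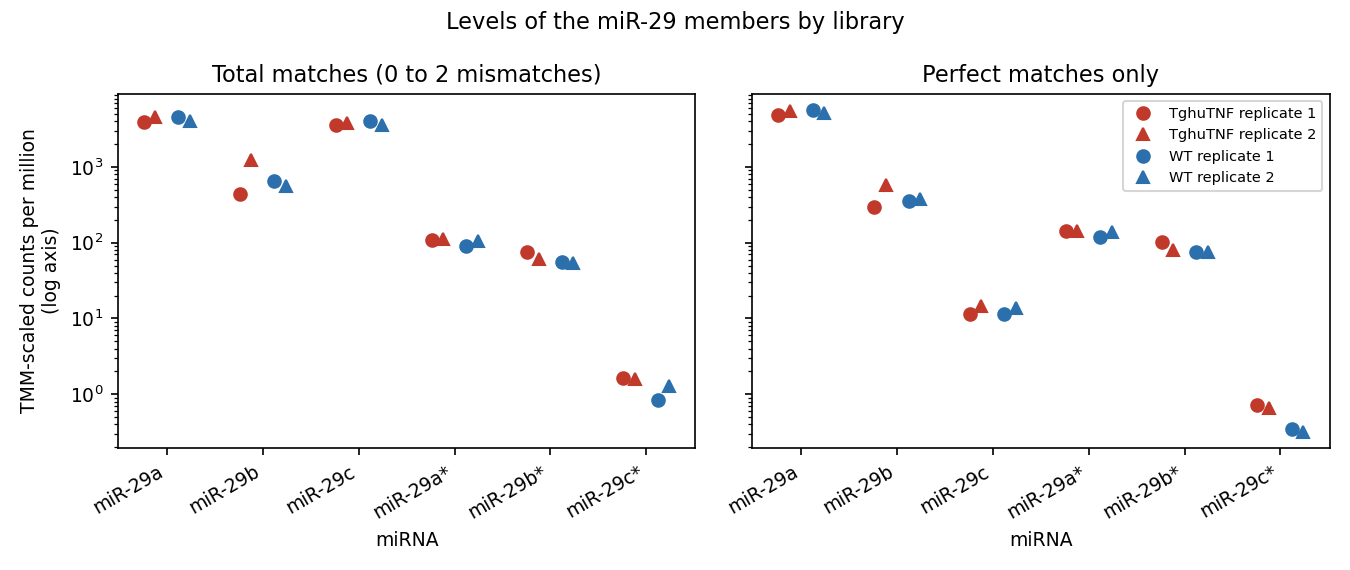
TMM-scaled CPM (log axis) of the 6 miR-29 members in each library, by total matches on the left and perfect matches on the right. miR-29c stands close to miR-29a by total matches and at 11.5 to 14.4 CPM by perfect matches, and miR-29b has its lowest and highest value in the 2 TghuTNF libraries.

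All 3 star arms had both TghuTNF libraries above both WT libraries, and none passed the test. miR-29a* stood at 109 and 112 CPM in TghuTNF and 90.7 and 104.5 CPM in WT (log2 fold change 0.17 ± 0.21, edgeR adjusted p = 0.62). miR-29b* stood at 74.8 and 61.3 CPM in TghuTNF and 55.1 and 54.0 CPM in WT (0.32 ± 0.22, edgeR adjusted p = 0.37). With 1 library left out, the log2 fold change ran from 0.076 to 0.28 for miR-29a* and from 0.091 to 0.43 for miR-29b*. Groups that did not overlap and were higher in TghuTNF were found for 30.8% of all 442 tested miRNAs, so 3 of 6 members is read against that share.

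miR-29c* was close to the limit of detection. It had 45 and 36 matches in TghuTNF and 14 and 35 in WT, of which 14 and 10 in TghuTNF and 4 and 6 in WT were perfect. A count of 0 allows up to 3 matches, which is 0.110 to 0.180 CPM depending on the library. Its log2 fold change was 0.56 ± 0.40 by total matches (edgeR adjusted p = 0.37) and 1.04 ± 0.54 by perfect matches (edgeR adjusted p = 0.24). The interval of the fold by perfect matches, 0.879 to 4.82, was the widest of the 6.

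The star arms differ in sequence more than the main arms do, and miR-29a* and miR-29c* each come from 1 cluster. By perfect matches, the chromosome 6 arm miR-29a* had 2790 and 2181 reads in TghuTNF and 1380 and 2616 in WT. miR-29b*, whose copy was not determined here, had 2000 and 1218 in TghuTNF and 876 and 1388 in WT. The chromosome 1 arm miR-29c* made up 0.291% and 0.293% of the perfect star matches in TghuTNF (exact 95% binomial intervals 0.159% to 0.488% and 0.141% to 0.539%), against 0.177% and 0.150% in WT (0.0482% to 0.453% and 0.0549% to 0.325%). These shares overlap within counting error between the libraries. Star arms can differ in how fast they decay, so their levels are not a measure of transcription of the clusters.

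Averaged over the 4 libraries, the ratio of main to star arm lay above the median of all hairpins for mir-29a and mir-29c. For mir-29b it lay below that median. By perfect matches there were 34.3 and 37.9 reads of miR-29a per read of miR-29a* in TghuTNF and 47.0 and 36.9 in WT. For mir-29b the ratio was 2.85 and 7.10 in TghuTNF and 4.62 and 5.10 in WT, with the main arm pooled over both copies. For mir-29c it was 16.1 and 21.8 in TghuTNF and 33.0 and 42.3 in WT, whereas by total matches, nearly all of them with 1 mismatch, it was 2162 to 4696. On the log2 scale the means over the 4 libraries were 5.28 for mir-29a, 2.22 for mir-29b and 4.63 for mir-29c, beside a median of 4.11 over 84 hairpins. In TghuTNF replicate 1 mir-29c stood at 3.96, below that median. How many perfect matches of miR-29c are misread miR-29a was not tested, which limits the mir-29c ratio as well.

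No arm ratio passed between genotypes. The log2 difference by perfect matches was -0.21 ± 0.32 for mir-29a (limma adjusted p = 0.90), -0.11 ± 0.41 for mir-29b (limma adjusted p = 0.92) and -0.92 ± 0.33 for mir-29c (limma adjusted p = 0.30), whose 2 TghuTNF values lay below both WT values. The mir-29c ratio rests on 14 and 10 perfect star matches in TghuTNF and 4 and 6 in WT. The limma fit was not weighted by counts, so its SE makes no separate allowance for so few matches. By total matches the difference for mir-29c was -0.67. With 1 library left out it ran from -1.03 (without WT replicate 2) to -0.31 (without WT replicate 1). Nearly all total matches of miR-29c had 1 mismatch and nearly equalled the perfect matches of miR-29a in number. The difference by total matches is therefore not read as a separate measurement of the mir-29c arms. Ratios that did not overlap and were lower in TghuTNF were found for 16.7% of the 84 hairpins. By perfect matches limma called 0 of the 84 (0%), and 9 had an unadjusted p under 0.05. By total matches, limma called 0 of 106 hairpins (0%), and 6 had an unadjusted p under 0.05.

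**Figure D4:**
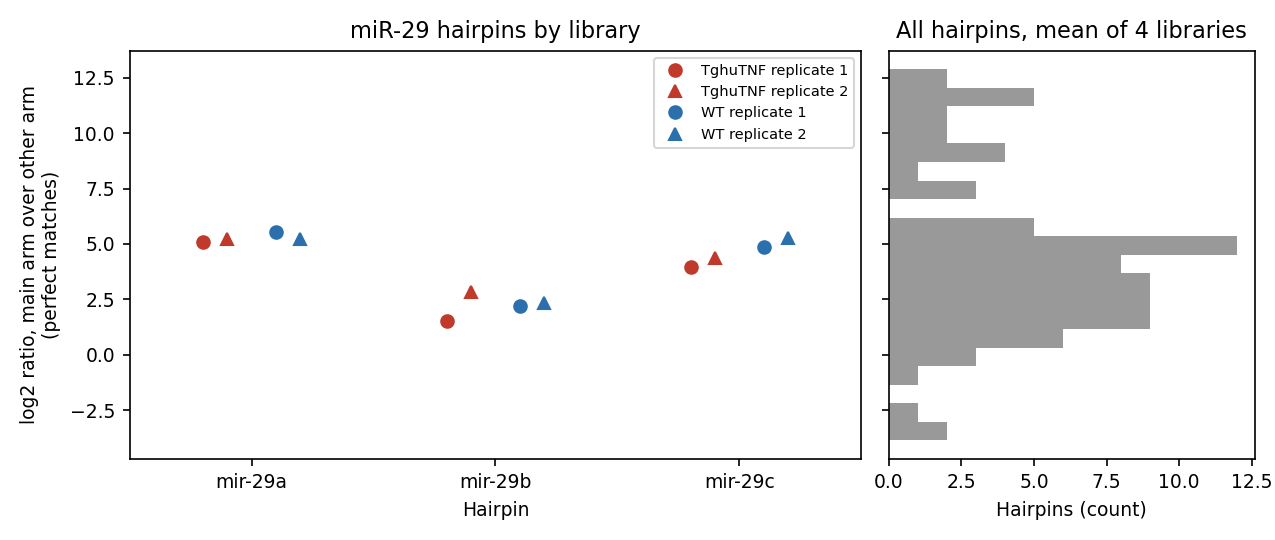
Log2 ratio of the main to the other arm by perfect matches (pseudocount 0.5) for the 3 miR-29 hairpin names in each library (left), and the distribution of the same ratio, averaged over 4 libraries, for 84 hairpins (right). mir-29b lies lowest of the 3, its 2 TghuTNF libraries enclose both WT libraries, and mir-29c is lower in both TghuTNF libraries than in both WT libraries. The mir-29c values rest on 4 to 14 perfect star matches per library.

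Across the family, 0 of 6 members passed between genotypes by total matches, beside 13.3% of all 442 tested miRNAs, and 0 of 6 passed by perfect matches, beside 13.2% of 380. No member had an unadjusted p under 0.05 in either fit, and DESeq2 and limma-voom also called 0 of 6. A p that misses the threshold does not show that levels were equal, and the intervals set the limits: by perfect matches the fold of miR-29a lay between 0.751 and 1.23, that of miR-29b between 0.743 and 1.88, and that of miR-29c between 0.665 and 1.60. Summed over the 6 members, perfect matches came to 5471 and 6270 CPM in TghuTNF and 6191 and 5769 CPM in WT. The sums averaged 5871 ± 566 CPM in TghuTNF and 5980.1 ± 298 CPM in WT (SD, n = 2 each), with the highest and lowest library both TghuTNF.

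**Figure D5:**
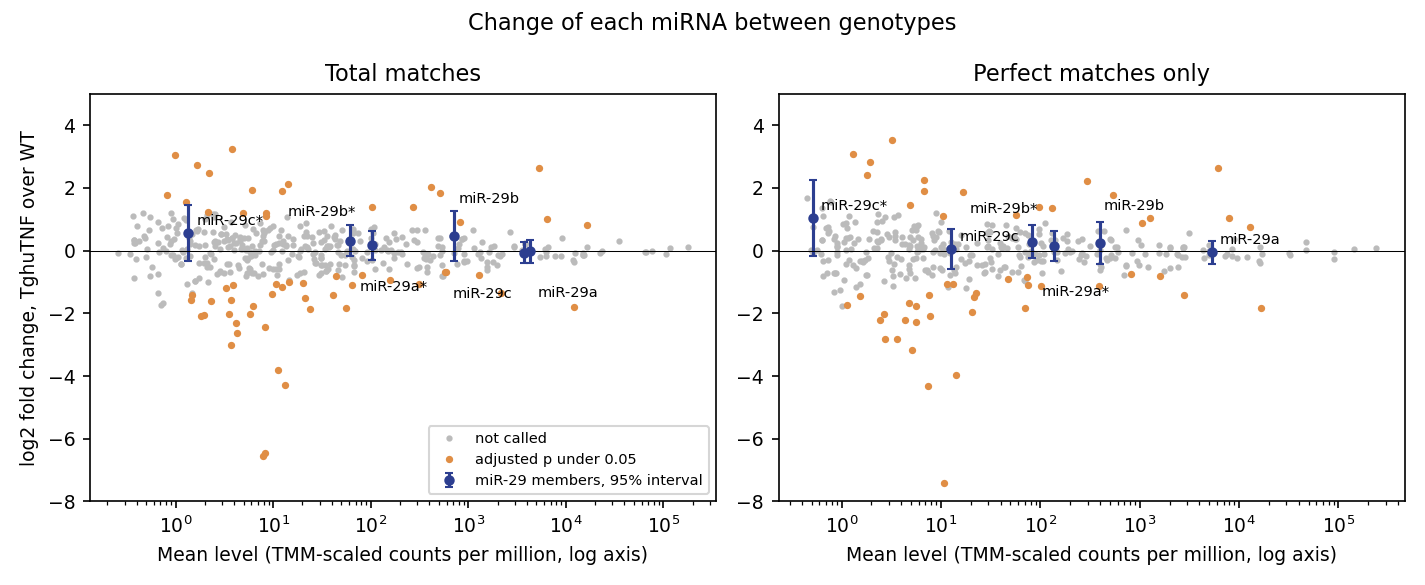
Log2 fold change, TghuTNF over WT, against mean level (CPM, log axis) for all tested miRNAs, by total matches (left) and perfect matches (right). The 6 miR-29 members with 95% intervals all span 0, and none is among the miRNAs with an adjusted p under 0.05.

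The odds that a match was perfect also did not pass between genotypes for any member. Over 265 miRNAs with at least 100 matches in every library, which leaves out miR-29c*, limma called 0 (0%), and 10 had an unadjusted p under 0.05. The log2 difference in odds was -0.26 ± 0.35 for miR-29a, -0.36 ± 0.40 for miR-29a*, -0.19 ± 0.41 for miR-29b, -0.55 ± 0.78 for miR-29b* and 0.09 ± 0.24 for miR-29c, beside a median of -0.19 over all 265. For miR-29a and miR-29b and their star arms the sign turned positive without TghuTNF replicate 2.

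The miRNAs whose perfect-match profile over the 4 libraries was most like that of the summed family were miR-28, miR-186 and miR-671-5p, of 113 candidates with a mean of at least 100 CPM. Their Euclidean distances on the centred log2 scale were 0.12, 0.16 and 0.16, beside a median of 0.39. miR-28 stood at 134 and 138 CPM of perfect matches in TghuTNF and 145 and 137 CPM in WT, a nearly flat profile. The summed family was nearly flat as well, so a small distance picks out flat profiles and need not mean a shared order of libraries. The highest library was WT replicate 1 for miR-28 and TghuTNF replicate 2 for the family.

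Other miRNAs known to act on matrix production or fibrosis were set beside the family. Of 24 listed as restraining matrix or TGF-beta signalling, 21 were tested, and 0 rose and 0 fell by edgeR, beside 4.75% and 8.60% of all 442 tested miRNAs, with a median log2 fold change of -0.098 beside 0.0056 over all miRNAs. The most abundant were miR-30a (-0.13 ± 0.15) and miR-30d (-0.13 ± 0.15), which are known to repress the matrix regulator Ctgf and of whose matches 33.9% and 38.8% were perfect. Their total matches lay close in every library. miR-30a stood at 14336 and 14912 CPM in TghuTNF and 14966 and 17141 CPM in WT. miR-30d stood at 14214 and 14743 CPM in TghuTNF and 14819 and 16971 CPM in WT. As with miR-29a and miR-29c, they are not read as 2 separate measurements. Without TghuTNF replicate 1 the median log2 fold change of the 21 was -0.188, beside -0.102 over all miRNAs tested. Without TghuTNF replicate 2 it was -0.091, beside -0.0065. Each of these 2 fits leaves 1 TghuTNF culture, so their calls are not read. By perfect matches 1 of 18 rose, beside 19 of 380 tested: miR-196a, named after its value was seen.

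Of 10 listed as promoting fibrosis, 1 rose, 1 fell and 8 did not pass, beside the same 4.75% and 8.60% of all 442, with a median of 0.038. miR-155, best known as an inflammatory miRNA, stood at 334 and 448 CPM in TghuTNF and 164 and 132 CPM in WT (log2 fold change 1.40 ± 0.22, edgeR adjusted p = 0.0019). By perfect matches edgeR no longer called it when either WT culture was left out (adjusted p = 0.050 without replicate 1, 0.17 without replicate 2), with log2 fold changes of 1.65 and 1.17 beside 1.38 with both. miR-214, made from a mesenchymal transcript, stood at 117 and 99.5 CPM in TghuTNF and 256 and 156 CPM in WT (-0.93 ± 0.26, edgeR adjusted p = 0.037), but did not pass when WT replicate 1 was left out (-0.53, adjusted p = 0.45), among miRNAs averaging 100 CPM or more (adjusted p = 0.0999) or with limma-voom (adjusted p = 0.054). miR-21 (0.12 ± 0.14) and miR-143 (-0.11 ± 0.14), the most abundant of the list, did not pass. Without TghuTNF replicate 1, which leaves 1 TghuTNF culture, the median log2 fold change of the 10 was -0.016, beside -0.102 over all miRNAs tested.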

How the data were processed

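Small RNA from 4 cultures was sequenced. Gel fractions of 20 to 30 and of 70 to 100 nucleotides were taken, per the labels' protocols. Per the file headers, the authors used mimap version 3d to match 37-base reads to 707 mouse miRNAs, with a hash length of 9 and up to 2 mismatches. The deposited counts are unnormalised numbers of matches per miRNA, split into 0, 1 and 2 mismatches. Adaptor trimming, the miRBase release, the genome build and the handling of multiply matching reads were not given in the sources used here.

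From these, counts were filtered with filterByExpr, scaled with TMM and tested two-sided in edgeR 4.0.16 (R 4.3.3) by quasi-likelihood, with no term but genotype, and Benjamini-Hochberg adjusted over all 442 tested miRNAs at a threshold of 0.05. Intervals of fold changes use the SE and degrees of freedom of that fit. The same fit was run on perfect matches (380 miRNAs). Odds of a perfect match and arm ratios (pseudocount 0.5) were tested with limma 3.58.1 over all miRNAs or hairpins. Alternatives were DESeq2 1.42.0, limma-voom, other scaling and filters, a replicate block and leaving out each library. The edgeR and limma fits were checked on simulated data. The members, lists and tests were chosen with earlier results of these data known. Named miRNAs outside the family are the 3 nearest profiles, called list members by smallest p, the 2 most abundant of each list and the most abundant tested marker of each cell type. Sequences were read from RefSeq and annotation from GENCODE M21, both on GRCm38; all 6 rows matched a RefSeq hairpin by name. Neither replicate pair was a duplicated library (their counts gave a chi-square of 554 per degree of freedom for TghuTNF and 553 for WT). A count of 0 allows up to 3 matches.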

Additional observations from a re-analysis of the deposited data

How the results depend on the processing

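Of 88 refitted fold changes of the members, 77 kept their direction and stayed uncalled, and 10 changed sign. The remaining 1, miR-29b without TghuTNF replicate 1, grew to 0.93 by total matches. That fit leaves 1 TghuTNF culture, so its call is not read, and the cause was not tested. Over the fits that left out 1 library, log2 fold changes ran from -0.15 to 0.067 for miR-29a, -0.49 to 0.93 for miR-29b and -0.14 to 0.020 for miR-29c by total matches, and from -0.12 to 0.033, -0.29 to 0.65 and -0.095 to 0.20 by perfect matches, an alternative chosen after seeing the data, in which miR-29a stood at 0.019 without TghuTNF replicate 1 and miR-29c at 0.17 without WT replicate 2. miR-29a stood at 0.0010 with a mean CPM of at least 100, and miR-29c at 0.046 with perfect matches only. The odds differences ran from -0.67 to 0.14 for miR-29a, -0.86 to 0.14 for miR-29a*, -0.66 to 0.28 for miR-29b, -1.58 to 0.47 for miR-29b* and -0.090 to 0.28 for miR-29c, which stood at -0.21 when 1 mismatch counted as a match. The arm ratio difference of mir-29b ran from -0.91 to 0.85. edgeR called 59 miRNAs, 93 without the filter, 14 with a mean CPM of at least 100 (135 miRNAs tested), and 49 to 153 (total) or 21 to 93 (perfect matches, 30 without WT replicate 1) with 1 library left out. The deviations of same-numbered libraries had r = -0.088 across 442 miRNAs. With 2 libraries per genotype this value cannot decide whether the replicates were paired. With the replicate block 87 miRNAs were called and no member was (miR-29b, 0.28). Depth limits miR-29c* in particular.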
